A study of Mus musculus with 4 samples.

Results

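The genes described here are the protamines *Prm1*, *Prm2* and *Prm3*, the transition proteins *Tnp1* and *Tnp2*, and the spermatid linker histones *H1fnt* and *Hils1*. Apart from *Prm3*, they encode basic proteins that package DNA in maturing spermatids. All were taken by symbol. Of the 7 genes, 6 had reads in the sense orientation of gene exons, among 12415 genes counted in that category, and *Hils1* was not analysed here. Testicular total RNA came from mice at postnatal day 60 on the C57Bl/6J background, with 2 libraries from Nef-sp-/- and 2 from Nef-sp+/- animals. Both genotypes carry the same 23-bp deletion in *Nef-sp*, a nuclease gene of the testis, made with a Cas9 nickase and a pair of guide RNAs in embryos. It is on both alleles in Nef-sp-/- and on a single allele in Nef-sp+/-, so the control is heterozygous. The line goes back to founder females mated to males of the C57Bl/6J Rj wild type. The deletion is carried by all cells of the animal, and the labels do not say whether animals were littermates or whether testes were pooled. The comparison asks whether RNA levels in the testis differ between the genotypes.

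During spermiogenesis, the haploid spermatid exchanges its histones first for transition proteins and then for protamines, and the nucleus is compacted into the sperm head. Transcription stops as compaction proceeds, so the mRNAs for these proteins are made in round spermatids, stored as ribonucleoprotein particles and translated days later in elongating spermatids. In whole testis, their level therefore depends both on how many late spermatids are present and on how much of each mRNA a spermatid holds, and in bulk RNA these cannot be told apart.

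In the mouse genome build mm9, *Prm1* (ENSMUSG00000022501), *Prm2* (ENSMUSG00000038015), *Prm3* (ENSMUSG00000050058) and *Tnp2* (ENSMUSG00000043050) lie next to each other on the minus strand of chromosome 16, within 8951 bp from 10788029 to 10796979. *Prm1* occupies positions 10796419 to 10796979, *Prm2* 10791476 to 10792198, *Prm3* 10790600 to 10791006 and *Tnp2* 10788029 to 10788748. *Tnp1* (ENSMUSG00000026182) is on chromosome 1, from 73061657 to 73062473, and *H1fnt* (ENSMUSG00000048077) on chromosome 15, from 98086413 to 98087738, both on the minus strand. *Prm1*, *Prm2*, *Tnp1* and *Tnp2* have 2 exons each, while *Prm3* and *H1fnt* have 1. For none of these 6 does another annotated gene overlap on either strand, and 0 of the stretches of 50 bases in their transcripts occur in protein-coding transcripts of other genes.

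The coding sequences of *Prm1* and *Tnp1* are shown because they let a reader see the shift in composition from a transition protein to a protamine. They were read from GENCODE vM1 transcripts ENSMUST00000023144 and ENSMUST00000027374, start to stop codon, and arginine codons are in capitals.
Prm1: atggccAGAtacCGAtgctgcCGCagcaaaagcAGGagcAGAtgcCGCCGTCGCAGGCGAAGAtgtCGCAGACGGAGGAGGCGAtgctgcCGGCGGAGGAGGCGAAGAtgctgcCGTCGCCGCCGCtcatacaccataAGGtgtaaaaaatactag
Tnp1: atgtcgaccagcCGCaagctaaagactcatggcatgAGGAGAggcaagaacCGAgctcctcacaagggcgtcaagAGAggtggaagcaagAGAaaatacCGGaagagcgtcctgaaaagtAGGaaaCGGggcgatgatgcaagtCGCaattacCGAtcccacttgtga

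Of the 51 codons of *Prm1*, 28 (54.9%) encode arginine and 9 encode cysteine, the residue that cross-links protamines in mature sperm. *Tnp1* has 55 codons, of which 11 encode arginine, 10 lysine and 0 cysteine. *Prm2*, whose product is cleaved from a longer precursor, has 38 arginine codons among 107 (35.5%) and 16 histidine codons. *Tnp2* has 16 arginine codons among 117 (13.7%) and 12 histidine codons. *H1fnt*, a linker histone of the spermatid nucleus, has 65 arginine codons among 398 (16.3%). *Prm3* stands apart from the other protamines, with 2 arginine codons among 101 (1.98%), and its product is known as an acidic protein of the spermatid cytoplasm.

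The 120 bases before the transcription start of the 4 most abundant of these genes are shown because promoters of many spermatid genes are known to hold cAMP-response elements, to which the factor CREM binds. The sequences are from RefSeq, build GRCm38.p6, on the minus strand. Capitals mark TGANNTCA, a relaxed form of the element TGACGTCA, and TATA between 40 and 21 bases before the start. Both motifs were picked after these promoters had been seen, and both read the same on either strand.
Prm1 (chr16:10796824-10796943): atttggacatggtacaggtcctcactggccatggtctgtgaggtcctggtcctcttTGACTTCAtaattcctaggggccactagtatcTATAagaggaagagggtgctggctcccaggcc
Prm2 (chr16:10792106-10792225): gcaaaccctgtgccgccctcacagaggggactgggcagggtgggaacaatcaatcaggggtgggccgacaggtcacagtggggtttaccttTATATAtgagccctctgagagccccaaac
Tnp1 (chr1:73015900-73016019): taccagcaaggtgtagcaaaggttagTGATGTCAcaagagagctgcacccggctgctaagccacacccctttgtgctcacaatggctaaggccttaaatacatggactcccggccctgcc
Tnp2 (chr16:10788656-10788775): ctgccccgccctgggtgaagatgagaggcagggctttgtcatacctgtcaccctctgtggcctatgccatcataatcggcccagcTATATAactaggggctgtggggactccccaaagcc

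Within 250 bases before the start, TGANNTCA occurred once in *Prm1*, 64 bases before the start, once in *Tnp1*, 94 bases before it, and once in *Prm3*, 60 bases before it. It had 0 matches in *Prm2*, *Tnp2* and *H1fnt*. It is present in 11.9% of the 32851 RefSeq promoter windows of that length, and the full TGACGTCA in 1.55%. TATA in the window given was present in *Prm1*, *Prm2* and *Tnp2*, and in 5.34% of all promoters. A match describes the letters only.

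Per length of exon, the 4 most abundant genes of the group were the top 4 of the 9987 genes with an annotated length. Normalized counts per kilobase averaged 191913 for *Prm2*, 177429 for *Prm1*, 167329 for *Tnp2* and 165629 for *Tnp1*, over 4 libraries. The ranges over libraries of these neighbours overlapped, from 156290 to 211428 per kilobase for *Prm2* and from 156654 to 189164 for *Prm1*. *H1fnt* ranked 45 with 13437 per kilobase, and *Prm3* ranked 111 with 8122, and their ranges, from 11412 to 14963 and from 7234 to 8751, did not overlap with each other. The order thus has its wide gap between *Tnp1* and *H1fnt*.

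The libraries held between 20659865 and 34442517 counted reads in 10 annotation categories, of which 15815159 to 26618821 were gene exon sense reads. *Nef-sp* itself (2610020H08Rik) had normalized counts of 407 and 497 in Nef-sp-/- against 1843 and 1693 in Nef-sp+/-, so the libraries separated as labelled (log2 fold change -1.97, adjusted p = 4.12e-06 from edgeR). Replicates differed by more than counting noise, since chi-square over its degrees of freedom, across exon sense features, was 8.53 between both Nef-sp+/- libraries and 3.52 between both Nef-sp-/- libraries. Among the libraries, Nef-sp+/- replicate 1 stood apart for the genes described here, and values are given with and without it. Nothing says that the libraries of a genotype came from separate animals, so p-values refer to the spread between these libraries. For each feature, edgeR estimates that spread partly from the other features.

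No protamine mRNA passed the test between the genotypes. *Prm1*, with the highest share of arginine codons in the group, had normalized exon sense counts of 73471 and 85866 in Nef-sp+/- replicates 1 and 2, and of 88718 and 84801 in Nef-sp-/- replicates 1 and 2. The groups overlapped, and Nef-sp+/- replicate 1 was the lowest library. The log2 fold change, here and below Nef-sp-/- relative to Nef-sp+/-, was 0.12 (standard error 0.0783, 95% interval -0.05 to 0.30). Its p from the quasi-likelihood test of edgeR was 0.954 after Benjamini-Hochberg adjustment over 10728 exon sense features.

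*Prm2*, the protamine made as a precursor, had normalized counts of 96587 and 130663 in Nef-sp+/- against 123192 and 123966 in Nef-sp-/-. Both Nef-sp-/- libraries lay between the Nef-sp+/- libraries. The means were 113625 ± 24100 and 123579 ± 547 (SD, n = 2 each), so the spread within Nef-sp+/- exceeded the difference between means. The log2 fold change was 0.12 (95% interval -0.13 to 0.37, adjusted p = 0.956).

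*Prm3* had normalized counts of 2944 and 3562 in Nef-sp+/- against 3416 and 3300.1 in Nef-sp-/-, and again the Nef-sp+/- libraries enclosed the others. The log2 fold change of 0.04 was the smallest of the group (95% interval -0.14 to 0.23, adjusted p = 0.973).

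Among the 6 genes, the transition proteins *Tnp1* and *Tnp2* were those without overlap between genotypes. Of all features, 16.4% were likewise without overlap and higher in Nef-sp-/-. *Tnp1*, the more basic of the pair, had normalized counts of 60173 and 69754 in Nef-sp+/- against 74025 and 72979 in Nef-sp-/-. The genotypes did not overlap, with Nef-sp-/- higher. The means were 64964 ± 6774 and 73502 ± 740 (SD, n = 2 each). Nef-sp-/- was thus 1.13-fold higher on average, or 0.18 in log2 (95% interval 0.012 to 0.34). Its unadjusted p of 0.0382 was the only one below 0.05 in the group, and after adjustment it was 0.954. The interval of *Tnp1* included 0, with an unadjusted p from edgeR of 0.0766 with a replicate block, 0.0636 in a single fit over all categories and 0.0518 with library sizes over all categories in place of TMM.

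*Tnp2*, the zinc-binding transition protein, had normalized counts of 78701 and 94202 in Nef-sp+/- against 100091 and 94462 in Nef-sp-/-. The groups did not overlap, but Nef-sp+/- replicate 2 and Nef-sp-/- replicate 2 were nearly equal. *Tnp2* had a log2 fold change of 0.17 (95% interval -0.02 to 0.36, adjusted p = 0.954).

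*H1fnt*, which encodes a linker histone found at the apical pole of the spermatid nucleus, had normalized counts of 15132 and 18316 in Nef-sp+/- against 19841 and 17979 in Nef-sp-/-. The genotypes overlapped, with a log2 fold change of 0.18 (95% interval -0.02 to 0.37, adjusted p = 0.954). Its unadjusted p from edgeR, 0.0709, was close to that of *Tnp2*, 0.0685.

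**Figure D1:**
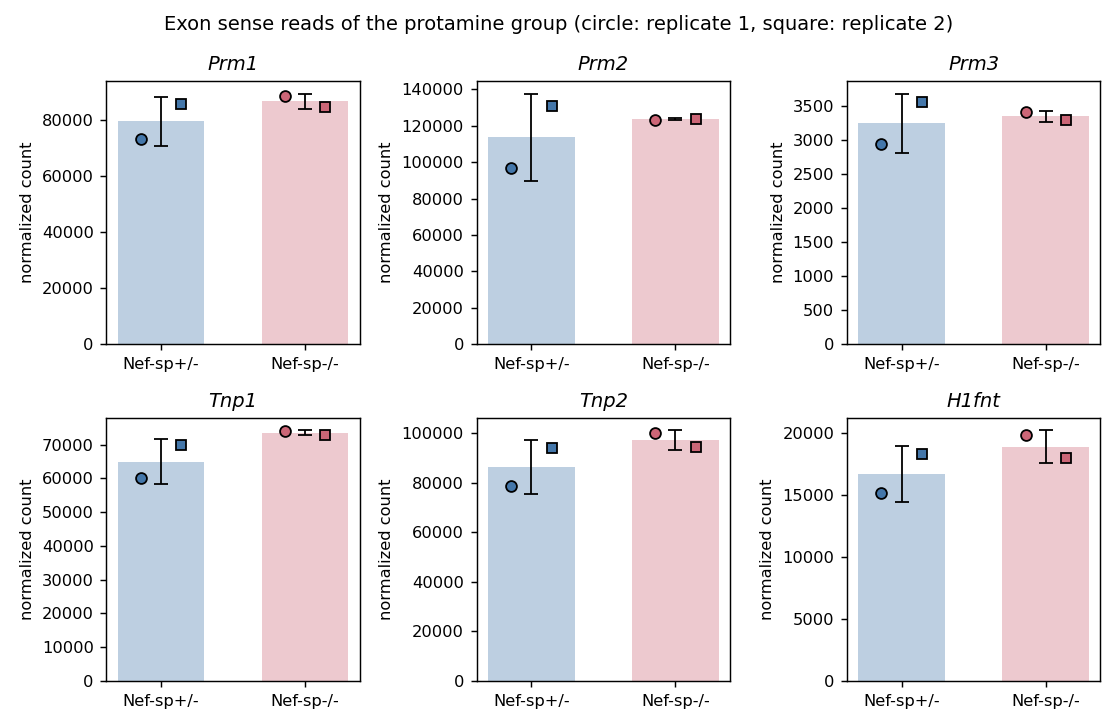
Normalized exon sense counts (y axis, from 0) of the 6 genes by genotype. Bars are means of 2 libraries with SD, circles are replicate 1 and squares replicate 2. Nef-sp+/- replicate 1 is the lowest point in each panel.

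With edgeR, 0 of the 6 genes were called at an adjusted p of 0.05, where 0.00932% of all exon sense features were called, namely *Nef-sp* alone. At an unadjusted p below 0.05 there was 1 of 6, and 515 of 10728 over all features. DESeq2 also called 0 of the 6. The log2 fold changes were above 0 in 6 of 6 genes, with a median of 0.15, while over all features the median was 0.00 and 49.9% were above 0. The groups did not overlap, with Nef-sp-/- higher, for 2 of 6 genes, *Tnp1* and *Tnp2*, against 16.4% of all features, and for 0 of 6 with Nef-sp-/- lower, against 18.1%. The largest upper bound among the 6 intervals was that of *H1fnt*, 1.29-fold, and the lowest lower bound that of *Prm3*, 0.908-fold.

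A single control library was the lowest throughout. Of the 4 libraries, Nef-sp+/- replicate 1 had the lowest normalized exon sense count in 6 of 6 genes, against 26.8% of all features. Relative to the mean of the other libraries, it held 76.7% for *Prm2*, 80.9% for *H1fnt*, 81.8% for *Tnp2*, 83.3% for *Tnp1*, 85.0% for *Prm1* and 85.9% for *Prm3*. On the log2 scale, Nef-sp+/- replicate 2 exceeded replicate 1 by 0.21 for *Tnp1* up to 0.44 for *Prm2*, with a median of 0.27, where the median of all features was -0.01. A gap of at least 0.21 in that direction was found in 13.2% of all features, and in 11.3% of the 1365 features at least as abundant as *Prm3*. This cutoff is the smallest gap of the group, so all 6 genes reach it by definition. Between the Nef-sp-/- libraries, the median difference over the 6 genes was -0.06. Nef-sp+/- replicate 2 was the deepest library, with 34442517 reads, against 20659865 in replicate 1 and 21104999 and 20685289 in the Nef-sp-/- libraries. The part of depth in the gap was not tested.

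**Figure D2:**
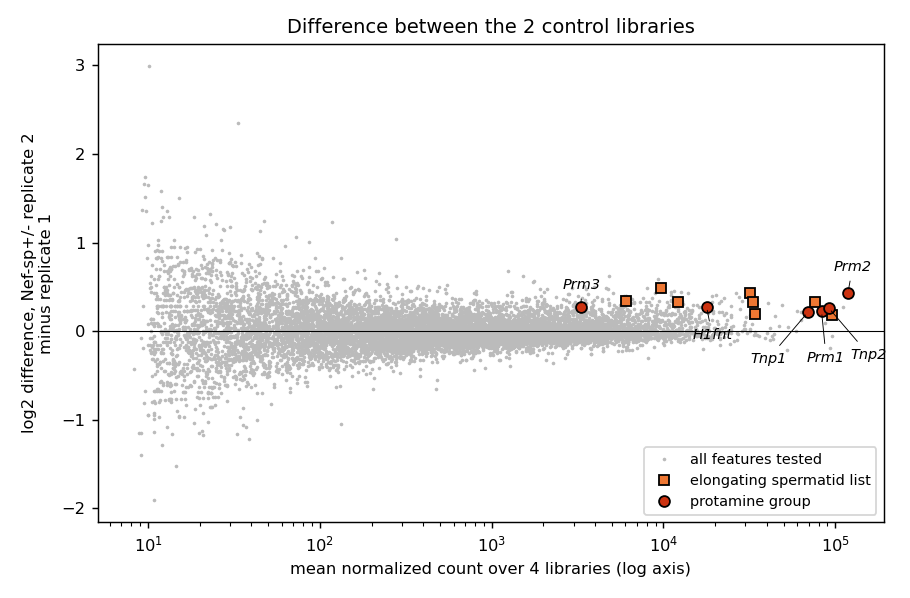
Difference between the control libraries for each exon sense feature (y axis, log2 of Nef-sp+/- replicate 2 minus replicate 1) against its mean normalized count (x axis, log scale). Grey points are the 10728 features tested, red circles the 6 protamine group genes and orange squares the 8 elongating spermatid markers, which lie above 0 without exception.

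Without Nef-sp+/- replicate 1, the log2 fold changes were 0.016 for *Prm1*, -0.080 for *Prm2*, -0.084 for *Prm3*, 0.076 for *Tnp1*, 0.047 for *Tnp2* and 0.047 for *H1fnt*. Their median was 0.031, and 0 of 6 were called, with 0.376% of all features called in that fit. The adjusted p ran from 0.913 to 0.998. Without Nef-sp+/- replicate 2, which leaves replicate 1 as the only control, they were 0.24, 0.36, 0.19, 0.29, 0.31 and 0.32 in the same order. In that fit 5 of 6 genes were called as higher in Nef-sp-/-, with 2.03% of all features called in that direction, and *Prm3* was the exception (adjusted p = 0.248). The adjusted p of the others ran from 7.81e-09 for *Prm2* to 2.09e-04 for *Prm1*, all from edgeR. With 1 library in an arm, these fits assume that it varies as the libraries of the other arm do. The direction and size of the difference in *Prm2* and *Prm3* turned on which control library was kept.

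**Figure D3:**
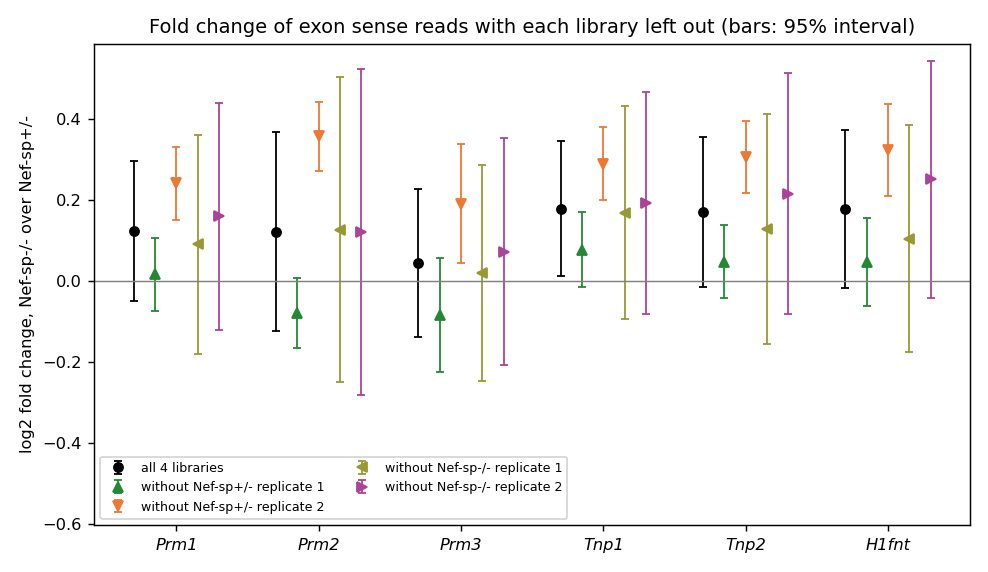
Log2 ratio of Nef-sp-/- to Nef-sp+/- (y axis) with its 95% interval for each gene (x axis), with all libraries and with each library left out. The values without Nef-sp+/- replicate 1 lie from -0.084 to 0.076, and those without Nef-sp+/- replicate 2 from 0.19 to 0.36.

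Together the 6 genes took 1.80% of the gene exon sense reads in Nef-sp+/- replicate 1 (Wilson 95% interval 1.79 to 1.80) and 2.15% in replicate 2 (2.14 to 2.15). They took 2.17% in Nef-sp-/- replicate 1 (2.16 to 2.18) and 2.12% in replicate 2 (2.12 to 2.13). These intervals cover counting error only. The means were 1.97% ± 0.248 in Nef-sp+/- and 2.15% ± 0.0318 in Nef-sp-/- (SD, n = 2 each), a difference of 0.175 percentage points, below the pooled SD of 0.177 points. The difference was -0.0005 points without Nef-sp+/- replicate 1 and 0.351 points without Nef-sp+/- replicate 2. *Prm2* alone took 0.530% of the reads in Nef-sp+/- replicate 1 and between 0.653% and 0.697% in the other libraries.

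Ratios within a library do not depend on how libraries are scaled. The ratio of *Prm1* to *Prm2* reads was 0.761 and 0.657 in Nef-sp+/- against 0.720 and 0.684 in Nef-sp-/-, and it varied most among the 6 ratios computed, by 1.16-fold from the lowest to the highest library. The ratio of *Tnp1* to *Prm1* was 0.819 and 0.812 in Nef-sp+/- against 0.834 and 0.861 in Nef-sp-/-. The ratio of *Tnp2* to *Prm1* was 1.07 and 1.10 in Nef-sp+/- against 1.13 and 1.11 in Nef-sp-/-. Both were higher in each Nef-sp-/- library than in either Nef-sp+/- library, by a few percent and untested. The ratio of *Prm3* to *Prm1* was 0.0401 and 0.0415 in Nef-sp+/- and lower, 0.0385 and 0.0389, in Nef-sp-/-. The ratios of *Tnp1*, *Tnp2* and *Prm3* to *Prm1* share a denominator and are not independent. Among exon sense counts, 16.4% of all features were without overlap and higher in Nef-sp-/-, and 18.1% without overlap and lower. No such share was computed for ratios of other gene pairs. The ratios of *Tnp1* to *Tnp2* and of *H1fnt* to *Prm1* overlapped between genotypes. Over libraries, the 6 ratios varied by 1.04- to 1.16-fold.

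Reads antisense to the exons were few. Over the 4 libraries, they made up 0.119% of the exon reads of *Prm1* (398 reads, Wilson 95% interval 0.108 to 0.131), 0.132% of *Tnp2*, 0.128% of *H1fnt*, 0.331% of *Tnp1*, 0.388% of *Prm2* (1873 reads, 0.371 to 0.406) and 0.639% of *Prm3* (86 reads, 0.518 to 0.789). Each was below the 0.992% of all exon reads. The antisense share of *Prm2* was above that of *Prm1* in each library, from 0.347% to 0.410% against 0.103% to 0.134%, and for neither is a gene annotated on the other strand.

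*Prm2* antisense reads had normalized counts of 340 and 523 in Nef-sp+/- against 512 and 461 in Nef-sp-/-, with Nef-sp+/- replicate 1 lowest, as for its sense reads. The log2 fold change was 0.15 (adjusted p = 0.996). *Prm3* antisense reads numbered 22 and 36 in Nef-sp+/- against 18 and 10 in Nef-sp-/-. After normalization, they were the only antisense reads of the group without overlap between genotypes, with a log2 fold change of -0.61 (95% interval -1.31 to 0.09, adjusted p = 0.996). Of all antisense features, 13.3% were without overlap and lower in Nef-sp-/-, and 17.1% without overlap and higher, so 1 of 6 genes was near the background. The value was -1.08 without Nef-sp-/- replicate 1 and -0.28 without Nef-sp-/- replicate 2, and no difference was detectable at this depth. In the antisense category, edgeR called 0 of the 6 genes and 0.0% of 1008 features, with 0 and 30 at an unadjusted p below 0.05, and DESeq2 called 0. For 5 of 6 genes, Nef-sp+/- replicate 1 had the lowest normalized antisense count, against 28.4% of all antisense features. Whether these few antisense reads vary independently of the far more numerous sense reads of the same genes was not tested. Without Nef-sp+/- replicate 2, *Prm2* antisense reads were called as higher in Nef-sp-/- (log2 fold change 0.51, adjusted p = 0.0307 from edgeR), as were 0.278% of the antisense features in that direction.

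Intron sense reads were counted for the 4 genes with an intron, and few were found. *Tnp1* had 42 and 60 intron reads in Nef-sp+/- and, in Nef-sp-/-, 45 and 53, and *Tnp2* had 27 and 49 against 27 and 30. After normalization, *Tnp1* had 47.1 and 44.2 against 53.6 and 58.3, without overlap and higher in Nef-sp-/-, while *Tnp2* overlapped. Of the 3403 intron sense features tested, 460 were without overlap and higher in Nef-sp-/-, and 493 without overlap and lower. *Prm1* and *Prm2* had 17 and 24 intron reads in all 4 libraries together, against 334264 and 480915 exon reads, and did not pass the expression filter. For every 10000 exon reads, *Tnp1* had between 6.06 and 8.59 intron reads, *Tnp2* between 3.12 and 3.95, and *Prm1* between 0.410 and 0.651. *Prm2* had 1.07 and 0.323 in Nef-sp+/- against 0.375 and 0.477 in Nef-sp-/-, from 9, 6, 4 and 5 intron reads, with Nef-sp+/- replicate 1 highest. The intron log2 fold change was 0.30 for *Tnp1* (95% interval -0.17 to 0.77) and -0.04 for *Tnp2* (95% interval -0.59 to 0.50). Of these 2 genes, 0 were called by edgeR, where 0.0294% of the 3403 intron sense features tested were called. Before adjustment, p was below 0.05 for 0 of 2 genes and for 80 of 3403 features. DESeq2 called neither gene.

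The level of the group was set beside markers of spermatids, in which these mRNAs are made and stored, and of other cells. The elongating spermatid list shared the low value of Nef-sp+/- replicate 1, which was the lowest library for 8 of its 8 tested genes, of 9 in the list. Examples are *Odf1*, an outer dense fiber gene, at 25478 and 34359 in Nef-sp+/- and at 35115 and 32727 in Nef-sp-/-, and *Akap4*, of the fibrous sheath, with 62670 and 78571 against 81757 and 81017. The largest and the smallest log2 fold changes of this list were those of *Fscn3*, 0.21, and *Akap3*, -0.03. Summed over the list, the normalized counts were 256810 and 311977 in Nef-sp+/- against 317820 and 306928 in Nef-sp-/-. The median log2 difference of Nef-sp+/- replicate 2 over replicate 1 was 0.33 in this list. Its median log2 fold change between genotypes was 0.15, the same as in the protamine group, and 0.00 without Nef-sp+/- replicate 1.

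Markers of round spermatids, which also hold these mRNAs, and of spermatocytes differed from this. The same library was lowest for 1 of 8 round spermatid markers and 1 of 8 spermatocyte markers. Summed normalized counts of the round spermatid list, which holds acrosome genes such as *Acrv1* (log2 fold change 0.05, the highest) and *Acr* (-0.09, the lowest), were 34213 and 35067 in Nef-sp+/- against 33722 and 34415 in Nef-sp-/-. Those of the spermatocyte list were 196844 and 194580 against 202046 and 197542. These sums weigh abundant genes most. The largest part of the spermatocyte sum was *Ldhc*, with 96490 and 92857 against 98792 and 96678, and that of the round spermatid sum was *Tssk1*. No gene of either list was called. The round spermatid exception was *Tssk1*, with 11681 and 12831 in Nef-sp+/- against 12141 and 12122 in Nef-sp-/-. The spermatocyte exception was *Pgk2*, a germ cell glycolytic gene, with 29558 and 33503 against 34236 and 34518. Its log2 fold change of 0.12 was the highest of that list, and that of *Hspa2*, a chaperone of meiotic cells, the lowest at -0.07.

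**Figure D4:**
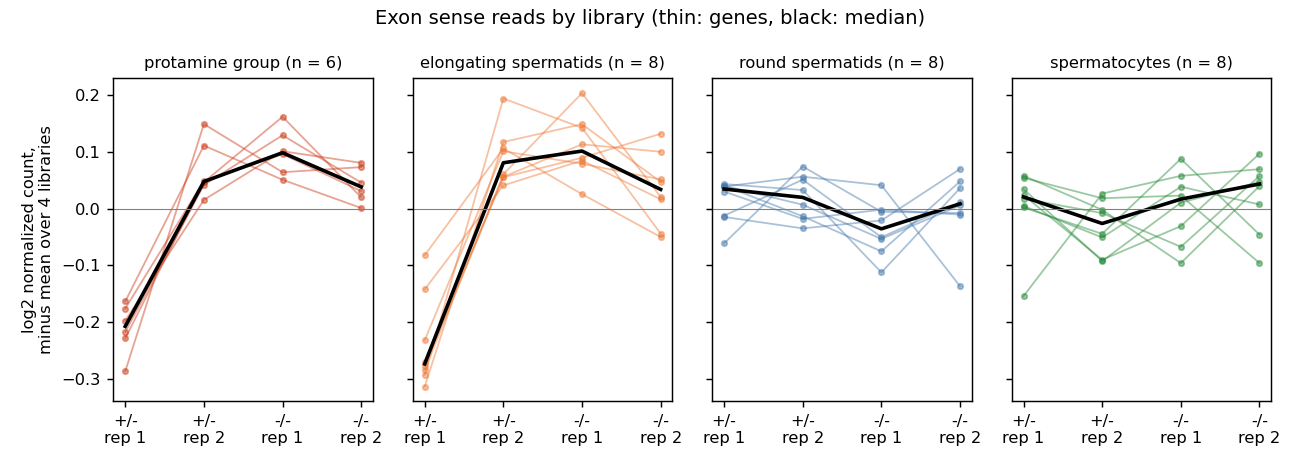
Log2 normalized exon sense counts by library, each gene centred on its mean over the 4 libraries (y axis), for the protamine group, elongating spermatid, round spermatid and spermatocyte lists. Thin lines join the values of 1 gene and the black line is the median. Nef-sp+/- replicate 1 is the lowest library in 6 of 6 and 8 of 8 genes of the left panels, and in 1 of 8 in each of the others.

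Markers of somatic cells and of spermatogonia were summed in the same way. Summed normalized counts of the Sertoli cell list were between 18013 and 18816 over the 4 libraries, and those of the Leydig cell list were 17515 and 17387 in Nef-sp+/- against 16565 and 13959 in Nef-sp-/-. Most of the Leydig sum was *Cyp17a1*, with 10616 and 10209 against 9284 and 7950, and most of the Sertoli sum was *Clu*. The median log2 fold change was 0.09 in the Leydig list, with 4 of 6 genes above 0. In the Sertoli list it was -0.08, with 2 of 6 above 0. The lowest log2 fold change of the Leydig list was that of *Cyp11a1*, a steroidogenic enzyme, at -0.35 (adjusted p = 0.859), and the highest that of *Insl3*, a Leydig cell hormone, at 0.18. Among Sertoli cell genes, the extremes were *Sox9*, a transcription factor, at -0.24 and *Cldn11*, of the tight junction, at 0.05. The peritubular myoid list summed to between 1229 and 1414, the macrophage list to between 849 and 1005, and the spermatogonial list, of which 4 of 7 genes were tested, to between 1123 and 1281. Their extremes were *Acta2* (-0.16) and *Tagln* (0.06), *Csf1r* (-0.08) and *Mrc1* (0.11), and *Dmrt1* (-0.14) and *Uchl1* (0.14), all as log2 fold changes. With edgeR, 0 genes of these 5 lists were called, and 2 Leydig genes, *Cyp11a1* and *Cyp17a1*, were called without Nef-sp+/- replicate 1. Their part in the level of the protamine group was not tested.

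Histone genes were mostly highest in Nef-sp+/- replicate 1, and some also separated by genotype. In the list of testis and replacement histones, that library was the highest for 8 of 9 genes and the lowest for 1. Over all features, it was the highest in 27.2% and the lowest in 26.8%. Without overlap between genotypes, 3 of 9 genes were lower in Nef-sp-/- and 1 was higher, against 18.1% and 16.4% of all features. An unadjusted p from edgeR below 0.05 was found for 3 of 9 genes, and for 515 of 10728 features. *Hist1h2ba*, a testis H2B, had normalized counts of 19273 and 16725 in Nef-sp+/- against 15120.3 and 16845 in Nef-sp-/-. *Hist1h1t*, the linker histone of spermatocytes, had 10219 and 9723 against 8641 and 9180. *H2afx* had the lowest log2 fold change of the list, -0.21 (adjusted p = 0.954). The exception was 1700113O17Rik, a spermatid H2A variant of the H2A.L type, with 3881 and 4384 in Nef-sp+/- against 4843 and 4918 in Nef-sp-/-. The log2 fold change of 0.24 was the highest of the list (adjusted p = 0.954). The median log2 fold change was -0.12 with all libraries and -0.063 without Nef-sp+/- replicate 1, and 0 of 9 were called in either fit.

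Lists of genes acting on these mRNAs had medians near that of all features, with members on both sides. Of the 10 genes for transcription of spermatid genes, 0 were called, and their median log2 fold change was 0.00. *Crem*, the transcription factor of many spermatid genes, had normalized counts of 3223 and 3182 in Nef-sp+/- against 3199 and 3305 in Nef-sp-/-. The extremes of this list were *Sox30*, -0.18, and *Taf7l*, 0.04. Among 11 genes for storage and translation of spermatid mRNAs, 0 were called, with a median of 0.01 and extremes of -0.15 for *Pabpc1* and 0.11 for *Prkra*. *Ybx2*, whose protein coats stored protamine mRNA, had 35444 and 34416 against 37380 and 33515.

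Of 16 genes for histone eviction and chromatin compaction, 0 were called, with a median log2 fold change of 0.00. *Hmgb4* was highest with 0.18 and *Dot1l* lowest with -0.17 (adjusted p = 0.954 each). *Tssk6*, a kinase needed for the histone to protamine exchange, had 3688 and 5155 in Nef-sp+/- against 5032 and 4744 in Nef-sp-/-, with Nef-sp+/- replicate 1 lowest. *Brdt*, a bromodomain protein of spermatids, had 6183 and 6349 against 6057 and 6062. Of these 16 genes, 4 had their lowest count in Nef-sp+/- replicate 1 and 3 their highest, against 26.8% and 27.2% of all features. The list as a whole thus did not share the low value of that library.

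**Figure D5:**
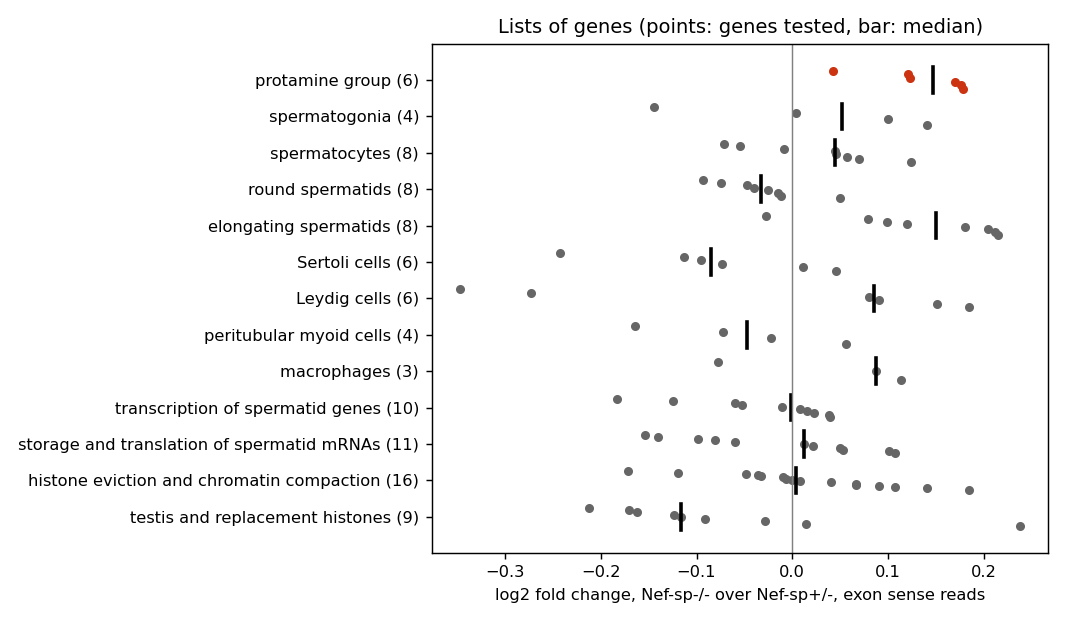
Log2 ratio of Nef-sp-/- to Nef-sp+/- (x axis) for the tested genes of each list (y axis, number of genes in brackets), with the median as a bar. The protamine group and the elongating spermatid list have the highest medians, 0.15 each, and the histone list the lowest, -0.12.

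The median pattern of the group over the libraries, centred on its mean, was -0.20 and 0.054 in Nef-sp+/- against 0.10 and 0.044 in Nef-sp-/- on the log2 scale. Among 8193 other features with a mean normalized count of at least 100, those nearest to it were *Plekha3*, AW554918, *Fbxo39*, *Actrt2* and 4932418E24Rik, with root mean square differences of 0.0061 to 0.0101 over 4 libraries. *Actrt2*, an actin-related gene of the sperm head, had normalized counts of 13797 and 16686 in Nef-sp+/- against 17244 and 16328 in Nef-sp-/-. In all, 320 features lay within 0.05 of the pattern. Within the group, *Prm1* (0.0153) and *Tnp2* (0.0159) were nearest to the median pattern and *Prm2* (0.0686) farthest.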

How the data were processed

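Strand-specific, rRNA-depleted testis libraries were read for 50 cycles. After adapter removal, the authors aligned reads to mm9 with in-house tools of the Sachidanandam laboratory and kept perfect matches only. They deposited raw counts per feature, category and strand. Tool versions, and how a read with several matches was counted, are not given in the sources used here. The authors also deposited a mean normalized signal, a log2 fold change and p-values from DESeq2, which were not used.

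Here, counts of each category were fitted with edgeR 4.0.16 in R 4.3.3 (quasi-likelihood test, TMM, filterByExpr with a minimum count of 10, Benjamini-Hochberg within the category, threshold 0.05), by genotype, without covariates. Normalized counts are counts divided by each library's effective size over the mean of these sizes. Exon lengths come from GENCODE vM1 (mm9), which matched 93.1% of features, and may differ from the models used for counting. Intervals of shares are Wilson intervals at 95%.

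Named are the 7 genes, *Nef-sp*, the genes with the highest and lowest log2 fold change of each list, and the 5 features nearest to the median pattern. Other list genes are examples chosen after their values were seen. The genes and lists were chosen with earlier results of these data known. Of 103 list genes, 93 matched by symbol and 4 by a RefSeq synonym.

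Alternatives were DESeq2 1.42.0, its size factors, other library sizes and filters, a single fit over categories, a replicate block, and each library left out. Figures were drawn with matplotlib 3.10.9.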

Additional observations from a re-analysis of the deposited data

How the results depend on the processing

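Leaving out each library in turn gave exon sense log2 fold changes of 0.016 to 0.24 for *Prm1*, -0.080 to 0.36 for *Prm2*, -0.084 to 0.19 for *Prm3*, 0.076 to 0.29 for *Tnp1*, 0.047 to 0.31 for *Tnp2* and 0.047 to 0.32 for *H1fnt*. *Prm2* and *Prm3* were below 0 without Nef-sp+/- replicate 1, and 5 genes were called without Nef-sp+/- replicate 2. The number of exon sense features called ran from 1 to 252 over these fits, with 41 without Nef-sp+/- replicate 1 and 252 without replicate 2, and that of antisense features from 0 to 3. Antisense values ran from -0.25 to 0.24 for *Prm1*, -0.12 to 0.51 for *Prm2*, -1.08 to -0.28 for *Prm3*, -0.011 to 0.20 for *Tnp1*, -0.11 to 0.28 for *Tnp2* and 0.0071 to 0.73 for *H1fnt*, and *Tnp2* intron values from -0.15 to 0.10. The difference in share of reads ran from -0.0005 to 0.351 percentage points. The cause was not tested. Under the other alternatives, none of which left out a library, the exon sense values kept their direction, from 0.02 to 0.18, and no gene of the group was called. DESeq2 called 2 exon sense features. Intron sense calls, 1 as reported, were 0 with library sizes taken over all categories, with no filter and in the single fit.

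The labels number the replicates without saying that a number pairs animals. Deviations of same-numbered libraries correlated by -0.08, -0.04 and -0.14 in exon sense, antisense and intron sense features. With a replicate block, 1 exon sense feature was called and *Tnp1* had a log2 fold change of 0.18 (adjusted p = 0.997 from edgeR), and no call of the group changed. With crossed numbers, added after seeing the data for introns, the replicate block called 2 intron features. With 2 libraries a genotype, the 95% intervals of the 6 genes lay within 0.908-fold and 1.29-fold, and differences inside them were not resolved.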
